A study of Drosophila melanogaster with 16 samples.

Results

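The genes described here are 9 members of the insulin pathway of the vinegar fly. Ilp2 (CG8167), Ilp3 (CG14167), Ilp5 (CG33273), Ilp6 (CG14049) and Ilp7 (CG13317) encode insulin-like peptides. ImpL2 (CG15009) encodes a secreted protein that binds such peptides, InR (CG18402) encodes their receptor, and chico (CG5686) and Lnk (CG17367) encode adaptors that act beside the receptor. They were taken by name, from every probe other than a control that carries the symbol or the CG number of the gene, and the rule uses no measured value. This gave 16 of the 32162 probes on the array and 9 of its 24291 gene names. InR had 5 probes, Ilp6 had 3, ImpL2 had 2 and each of the other genes had 1. In the RefSeq gene table of Release 6 all 9 were found, with Ilp2, Ilp3, Ilp5 and ImpL2 on chromosome arm 3L, Ilp6 and Ilp7 on X, InR and Lnk on 3R and chico on 2L. Ilp1, Ilp2, Ilp3 and Ilp4 follow one another there with 0 other protein-coding genes between them, and 1 such gene lies between Ilp4 and Ilp5.

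Insulin-like peptides carry the state of nutrition through the body of the fly. In the adult brain a small cluster of median neurosecretory cells makes Ilp2, Ilp3 and Ilp5 and releases them into the hemolymph, while Ilp6 is known mainly from the fat body, the counterpart of liver and adipose tissue, and Ilp7 from a few neurons of the nerve cord. A bound peptide switches on the tyrosine kinase InR, which passes the signal through Chico and Lnk to phosphatidylinositol 3-kinase and Akt, and Akt keeps the transcription factor Foxo out of the nucleus. When insulin signalling is low, Foxo is known to act on its target genes, among which are InR itself and Thor, and Ilp6 in the fat body.

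Expression was measured on 4 groups of 4 microarrays of the Agilent one-colour design. Here each extract is copied with a dye, hybridised to spots of DNA probe and read as the intensity of each spot. The groups were antennae of starved females, antennae of fed females, brains of starved females and brains of fed females. Starved flies had spent 28 h with moist paper only, and fed flies were housed likewise with sucrose to feed on. The labels give an age of 5 to 7 days for all flies and no genotype, and the methods name CantonS among the lines of the study without tying it to the arrays. Each extract was a pool of 100 antennae or 50 brains from 50 flies. The sources do not say whether the 4 extracts of a group came from separate cultures, so the p-values measure the spread between extracts only. Levels are log2 values relative to the 75th percentile of the array, so a level of 0 is a signal at that percentile. Levels of different probes cannot be set against each other, and in whole tissues a loss of cells cannot be told apart from a loss of RNA per cell.

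The 75th percentile lay between 614 and 1028 intensity units, between 65.4 and 73.6% of the spots were well above background, 0 were saturated, and r between replicate arrays was 0.978 to 0.997. All 6 antenna markers were well above background on all antennal arrays, with a summed signal of 511 to 678 times the 75th percentile there, against 5.00 to 9.14 in starved and 3.50 to 5.47 in fed brains. All 7 markers of brain neurons were well above background on the brain arrays. 2 of the fed antennal arrays, replicates 1 and 2, stood apart from the other antennal arrays, with a summed signal of 3 gut markers of 48.0 and 93.0, against 0.380 to 1.01 on the other fed ones and 0.0922 to 0.348 on the starved ones. On brain arrays this sum ran from 6.67 to 214 in starved and from 5.24 to 106 in fed flies. Pepck1, a gene commonly raised by lack of food, was lower in the starved groups, by a log2 change of −2.97 in antennae and −3.13 in brain (adjusted p = 0.000602 and 0.000963, limma), and sugarbabe (sug), a gene known to be induced by dietary sugar, was higher there, by 1.65 and 2.94. AstA, which encodes allatostatin A, changed by −1.85 in antennae (adjusted p = 0.00544). The study's text gives the opposite direction for it. All of these run against the direction known or stated for them, so starved and fed stand throughout for the arrays so labelled, and an exchange of the labels, which was not tested, would turn every starved minus fed difference given here.

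In the brain the starved arrays had more Ilp2, Ilp3 and Ilp6 signal than the fed arrays and less ImpL2 signal. The receptor gene InR fell on 3 of its 5 probes and did not pass the test on the other two, and Ilp5, Ilp7, chico and Lnk did not pass the test. By probes, 5 of 16 were higher and 5 lower, against 11% and 22% (33% in either direction) of all 21838 probes tested in brain. The starved and fed arrays did not overlap for these 10 of 16 probes, against 32.6% of all probes (11.9% with the starved arrays higher and 20.8% with them lower). Counted by the brightest tested probe of each gene, 3 of 9 genes were higher and 1 was lower, against 11.6% and 21% (32.6% in either direction) of all genes. Ilp6 probe 3 is among the 5 and passed the filter on dim probes only through the starved arrays. In the antennae 12 of the 16 probes could be tested. Of these, 1 was higher (Lnk) and 3 were lower (all of InR), against 10.3% and 19.2% (29.5% in either direction) of all 20587 probes tested there. The groups did not overlap for 6 of 12, against 31.9% (12.5% with the starved arrays higher and 19.4% with them lower). By genes, 1 of 6 was higher and the other five did not pass, against 11.1% higher and 17.4% lower (28.4% in either direction) of all genes. The antennal split of 1 higher and 3 lower probes moved with the scaling, to 5 higher and 1 lower with arrays centred on their medians, 3 and 2 after quantile normalization, and 1 and 5 with the percentile taken over spots well above background, while in brain it was 6 and 5, 4 and 5, and 5 and 7. The median log2 change over the member probes was −0.02 in antennae and −0.10 in brain, beside −0.04 and −0.09 over all probes tested.

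**Figure D1:**
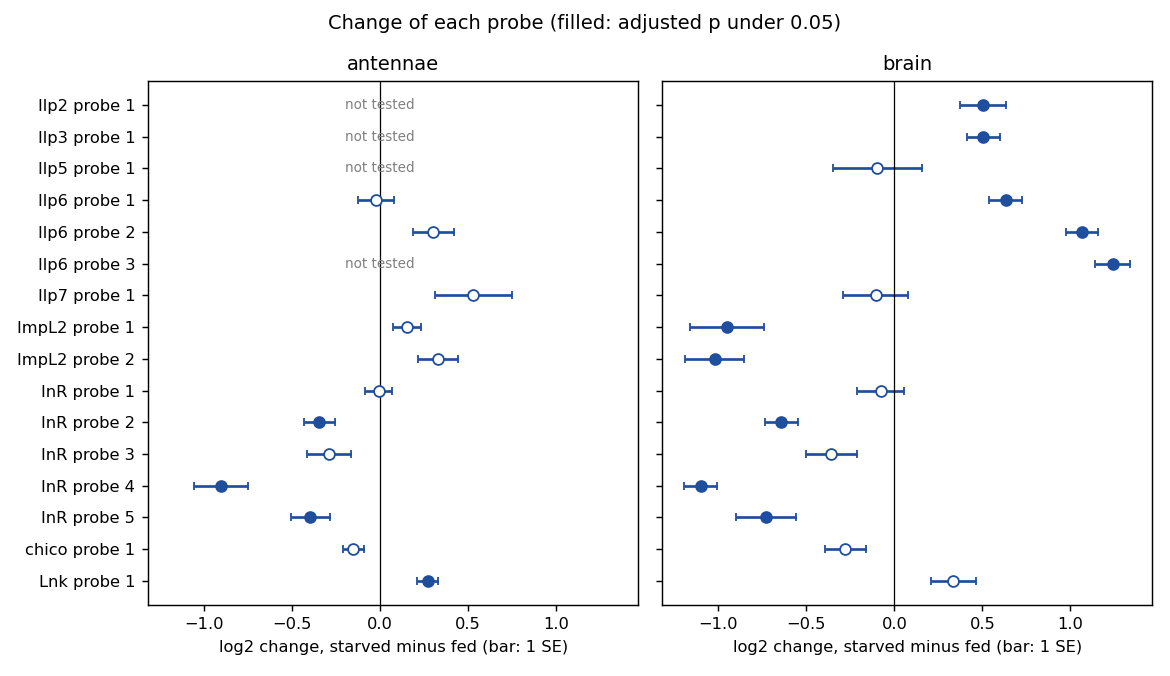
Log2 change of each of the 16 probes, starved minus fed, in antennae (left) and brain (right). Points are limma estimates, bars 1 SE either way, and filled points have an adjusted p under 0.05. In brain 5 filled points lie right of 0 and 5 left of it, and in antennae 1 lies right and 3 left.

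Ilp2 encodes the peptide of the neurosecretory cells that is most studied in the adult. In starved brains its levels were 3.40, 3.24, 3.33 and 2.92, against 2.71, 2.48, 2.80 and 2.88 in fed brains. The starved arrays all lay above the fed ones, by a narrow margin, since the lowest starved array, replicate 4, was close to the highest fed array. The log2 change was 0.51 (SE 0.13, adjusted p = 0.0216), which is 1.42-fold. The call was lost in 4 of 8 fits that left out 1 array, those without replicate 1 or 3 of the starved brains or without replicate 1 or 2 of the fed brains, with a change of 0.43 to 0.61 and an adjusted p of up to 0.0612 over the 8 fits, and under quantile normalization (adjusted p = 0.0520). With the slide as a block it was lost too (adjusted p = 0.0570), the change within slides being 0.69, 0.76, 0.53 and 0.04.

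Ilp3, which the same cells make, had levels of 1.41, 1.26, 1.37 and 1.17 in starved brains, against 0.78, 0.60, 0.91 and 0.89 in fed brains. Its groups did not overlap, and the log2 change of 0.51 (SE 0.096, adjusted p = 0.00688) is also 1.42-fold. Every one of the 8 fits without 1 array kept the call. Where antennae and brain were put into 1 fit, the far larger spread of both genes between antennal arrays entered the error, and the adjusted p in brain was 0.620 for Ilp2 and 0.448 for Ilp3.

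Ilp5 is the third peptide of these cells, and its log2 change of −0.10 (SE 0.25, adjusted p = 0.789) did not pass the test. The starved brains were at −1.46, −1.31, −1.48 and −2.40, against −1.38, −1.99, −1.41 and −1.49 in fed brains. One array in each group, starved replicate 4 and fed replicate 2, lay below the rest, and the other six spanned −1.49 to −1.31. Without starved replicate 4 the difference was 0.15 with an adjusted p that again missed the threshold. Dsk, a peptide gene that the same neurosecretory cells express, changed by 0.09 in brain (adjusted p = 0.486), and Akh, the marker of the adjoining corpora cardiaca, by −0.08 (adjusted p = 0.804).

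The likeness of other probes to Ilp2 was taken over the 8 brain arrays as Pearson's r, among all probes tested in brain, and serves as a description, since the 8 arrays share 2 conditions. The closest were Mpcp2 (r = 0.995), which encodes a mitochondrial phosphate carrier, lama (r = 0.987) and Sgt (r = 0.975). Of these, lama was itself higher in starved brains, with a log2 change of 0.48 (adjusted p = 0.0208), while Mpcp2 changed by 0.20 and Sgt by 0.24 (adjusted p = 0.0855 and 0.0725).

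**Figure D2:**
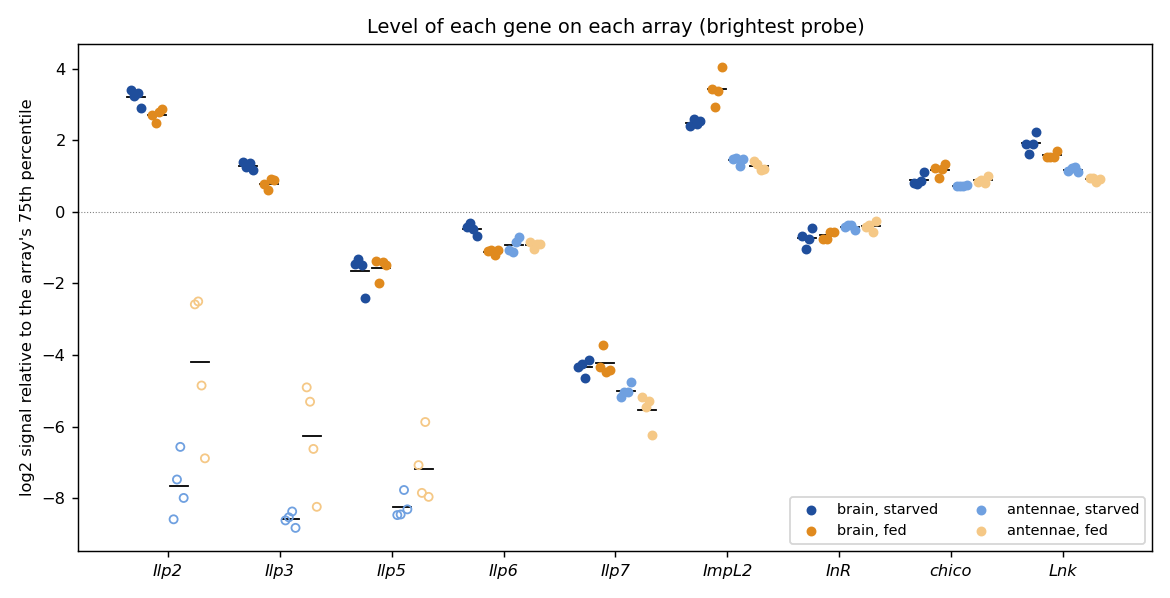
Level of each gene on each array, by its brightest probe, as log2 signal relative to the 75th percentile of the array. Each point is 1 of 16 arrays, the bars are means of 4, and open points belong to probes that were not tested in antennae. Ilp2, Ilp3 and Ilp5 lie between −8.83 and −2.50 in antennae and between −2.40 and 3.40 in brain, and each other gene spans less than 3 log2 units over the 16 arrays.

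In the antennae the 3 peptides of the neurosecretory cells were not well above background on any starved array, and on fed arrays they were so on 1 to 3 of 4. Ilp2 was not well above background on any of the 4 starved arrays, with measured values of −8.59, −7.48, −6.57 and −8.0, and it was on 3 of 4 fed arrays, at −2.58, −2.50, −4.85 and −6.89. Replicates 1 and 2 of the fed antennae were far above all others, while replicate 4 fell among the starved arrays. The signal was at least 8.72-fold lower in starved antennae, where the bound sets the mean of the fed arrays against the lowest signal that counted as well above background on each starved array, or the probe's own signal where that was higher. The fed mean includes 1 array that was not well above background, so the bound is approximate. With replicates 3 and 4 as the only fed arrays the bound was 2.75-fold and the groups overlapped. The difference had p = 0.0571 (two-sided exact permutation test), where 4 arrays against 4 allow no p below 0.0286.

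Ilp3 was not well above background on any starved antennal array (−8.63, −8.54, −8.38 and −8.83) and was on 2 of 4 fed ones (−4.91, −5.31, −6.63 and −8.25). The groups did not overlap (exact permutation p = 0.0286). The mean of the fed arrays was 3.16 times the level that the bound takes for the starved arrays. It includes 2 arrays that were not well above background, so 3.16-fold is not a strict bound. With replicates 3 and 4 as the only fed arrays no bound is given. Replicate 4 then lay below −7.93, the mean level that the bound takes for the starved arrays. Ilp5 was well above background on 0 of 4 starved antennal arrays, which spanned −8.48 to −7.78, and on 1 of 4 fed ones, which spanned −7.97 to −5.87 (exact permutation p = 0.0857). The same ratio was 1.43 for Ilp5, but its fed mean includes 3 arrays that were not well above background, so it is no bound either.

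Set against the mean brain level of the same gene, the Ilp2 signal of fed antennae was 2.08, 2.21, 0.432 and 0.105% in the order of replicates, and that of Ilp3 was 1.59, 1.20, 0.482 and 0.157%. The starved antennae gave measured signals of at most 0.131% for Ilp2, 0.143% for Ilp3 and 1.36% for Ilp5, none of them well above background. Among other peptide genes of brain neurons, SIFa, which encodes the peptide SIFamide, was not well above background in starved antennae and was at 3.54, 4.40, 0.401 and 0.170% in fed antennae, and Dsk was at 0.396 to 0.735% in starved antennae, against 5.66, 1.44, 0.844 and 0.646% in fed antennae. These were highest on fed replicates 1 and 2, as Ilp2 and Ilp3 were, but not all such genes followed that pattern. Ilp5 was at 2.21, 1.29, 5.09 and 1.19% in fed antennae, with the highest value on replicate 3. Pdf, the peptide gene of clock neurons, was at 2.42, 0.937, 1.86 and 0.164% in fed antennae, and at 0.0330 to 0.331% in starved antennae. Pdf was well above background on 4 of 4 fed and 1 of 4 starved antennal arrays, so it was tested only through the fed arrays, where it is high. Its log2 change in antennae of −3.84 (adjusted p = 0.0231) rests on starved values near background. Lk, which encodes leucokinin, reached 4.23% on a starved array, above the 2.96% of the highest fed array. The part of brain RNA in the antennal levels of Ilp2, Ilp3 and Ilp5 was not tested.

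**Figure D3:**
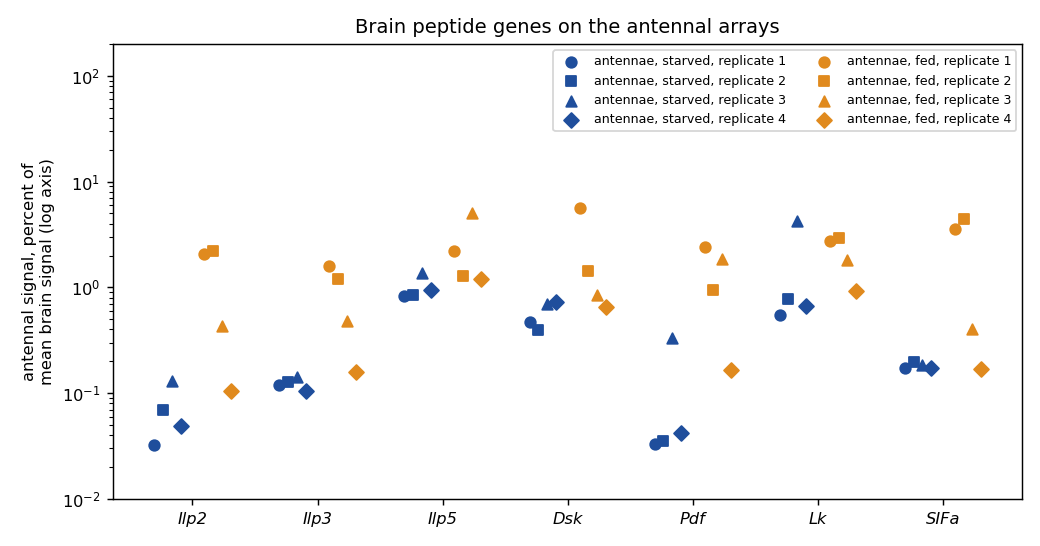
Antennal signal of Ilp2, Ilp3, Ilp5 and 4 other peptide genes of the brain (Dsk, Pdf, Lk, SIFa) as a percentage of the mean brain signal of the same probe, on a log axis. Each symbol is 1 antennal array, with its shape giving the replicate number, starved left of fed. Ilp2, Ilp3, Dsk, SIFa and Lk on fed replicates 1 and 2 lie between 1.20 and 5.66%, and fed replicate 4 lies at or below 1.19% for all 7 genes. Ilp5 is highest on fed replicate 3 (5.09%) and Lk on 1 starved array (4.23%), and the starved points of Ilp2, Ilp3, Ilp5 and SIFa are not well above background. Pdf and Lk are well above background on 1 of 4 starved arrays each.

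Ilp6, the peptide gene of the fat body, was higher in starved brains on each of its 3 probes. Probe 1, the brightest, was at −0.43, −0.31, −0.47 and −0.68 in starved brains, against −1.08, −1.07, −1.20 and −1.07 in fed brains. The fed arrays lay close together, except replicate 3 slightly below, and all starved arrays were above them. The log2 change was 0.63 (SE 0.093, adjusted p = 0.00265), or 1.55-fold. Probe 2 was at −2.30, −2.16, −2.28 and −2.28 in starved brains, against −3.21, −3.43, −3.46 and −3.18 in fed brains, a log2 change of 1.06 (SE 0.090, adjusted p = 0.000579), or 2.09-fold.

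Probe 3 of Ilp6 was dim, with −5.81, −5.55, −5.85 and −5.83 in starved brains and −7.11, −6.82, −7.08 and −6.99 in fed brains, where it was well above background on 1 of 4 arrays. Its log2 change of 1.24 (SE 0.10, adjusted p = 0.000562) had to be large for the probe to be tested at all, and it was 0.05 (adjusted p = 0.678) after normexp background correction. Probes 1 and 2 kept their calls in all 8 fits without 1 array and under all other settings tried.

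Markers of the fat body moved with Ilp6. Of 7 fat body genes, 6 were higher in starved brains and the seventh, Fbp1, was not well above background on any array. Their summed signal was 112 to 189 in starved brains and 35.0 to 56.8 in fed brains, in units of the 75th percentile, and 14.4 to 34.7 in starved and 11.9 to 27.3 in fed antennae. The yolk protein gene Yp1 changed by 2.02 in brain (adjusted p = 0.00192) and the lipoprotein gene apolpp by 1.67 (adjusted p = 0.000583). The summed signal of 3 glial genes was 17.9 to 21.2 in starved brains and 13.3 to 15.7 in fed brains. In antennae it was 9.41 to 10.9 in starved and 8.52 to 8.74 in fed flies. Of these 3 genes, 1 was higher in brain and 2 did not pass, and in antennae all 3 did not pass. The part of fat body and glia in the Ilp6 values was not tested. The probes most like Ilp6 probe 1 over the 8 brain arrays were those of BomBc2 (r = 0.993), which encodes an immune-induced secreted peptide, Phk-3 (r = 0.993) and CG3270 (r = 0.992), and all of these were higher in starved brains, with log2 changes of 1.47, 1.41 and 0.82. They were chosen by likeness over these same arrays, so their direction follows from the choice and is no further result.

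In antennae the difference of Ilp6 did not pass the test on probes 1 and 2. Probe 1 spanned −1.13 to −0.71 on starved arrays and −1.02 to −0.84 on fed arrays, a difference of −0.02 (SE 0.10, adjusted p = 0.875) whose sign turned when arrays were centred on their medians. Probe 2 spanned −3.03 to −2.66 on starved arrays and −3.35 to −2.95 on fed arrays (0.30, SE 0.11, adjusted p = 0.0776), and it passed after quantile normalization (0.48, adjusted p = 0.0106), with arrays centred on their medians (0.51, adjusted p = 0.0072) and in 1 fit over all 16 arrays (adjusted p = 0.0451). Probe 3 was well above background on 2 of 4 starved and 0 of 4 fed arrays, with means of −6.53 and −7.03, and was not tested. The apolpp and fon genes were the fat body markers that were higher in starved antennae, 2 of the 7.

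**Figure D4:**
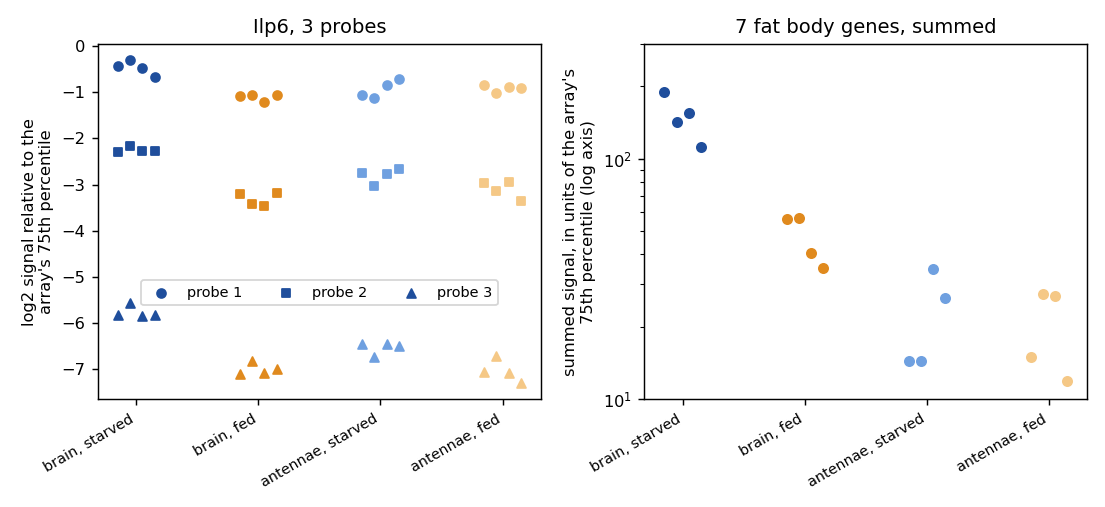
Left, log2 level of the 3 probes of Ilp6 on each array, relative to the 75th percentile of the array. Right, summed signal of 7 fat body genes on the same arrays, in units of the 75th percentile on a log axis, with 1 point per array. Both are higher in starved than in fed brains on every array, and in antennae the starved and fed points of probes 1 and 2 and of the sum overlap.

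Ilp7, a peptide gene known from a few neurons, had a dim probe that was well above background on all 16 arrays. It was at −4.34, −4.26, −4.64 and −4.14 in starved brains, against −4.34, −3.72, −4.48 and −4.41 in fed brains, a log2 change of −0.11 (SE 0.18, adjusted p = 0.684) with 2 slides in each direction. In antennae it was at −5.16, −5.05, −5.05 and −4.77 on starved arrays, against −5.18, −5.46, −5.29 and −6.23 on fed arrays. The antennal groups did not overlap, but by little, with the lowest starved array beside the highest fed one and fed replicate 4 far below. The log2 change of 0.53 (SE 0.22, adjusted p = 0.0989) did not pass the test in antennae, and it did when arrays were centred on their medians (0.74, adjusted p = 0.0169) or after quantile normalization (0.89, adjusted p = 0.0131).

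ImpL2, whose product binds insulin-like peptides outside the cell and restrains signalling, was lower in starved brains on both of its probes. Probe 1 was at 2.40, 2.61, 2.45 and 2.54 in starved brains, against 3.44, 2.93, 3.38 and 4.05 in fed brains. The starved arrays were tightly grouped, and the fed arrays spread over more than 1 log2 unit above them. The log2 change was −0.95 (SE 0.21, adjusted p = 0.0121), so fed brains had 1.93 times the signal of starved brains. Probe 2 was at 1.68, 1.75, 1.86 and 1.69 in starved brains, against 2.77, 2.28, 2.87 and 3.13 in fed brains, and it changed by −1.02 (SE 0.17, adjusted p = 0.00398). The fat body and glial sums given above were higher in starved brains, where ImpL2 was lower, and their part in its values was not tested. On both probes fed replicate 2 was the lowest and fed replicate 4 the highest of the fed arrays. Both calls held in all 8 fits without 1 array and under all other settings tried.

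In antennae the ImpL2 values differed in the other direction and did not pass the test. Probe 1 spanned 1.29 to 1.51 on starved arrays and 1.18 to 1.41 on fed arrays (0.15, SE 0.080, adjusted p = 0.174). Probe 2 spanned 0.72 to 1.04 on starved arrays and 0.36 to 0.81 on fed arrays (0.33, SE 0.11, adjusted p = 0.0568), and it passed without fed replicate 1 (0.42, adjusted p = 0.0198) with replicates 3 and 4 as the only fed arrays (0.44, adjusted p = 0.0480), with arrays centred on their medians (0.54, adjusted p = 0.00631) and with array weights (0.40, adjusted p = 0.0130). The starved array was higher on 4 of 4 slides on both probes.

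The 5 probes of InR, numbered from the brightest, gave estimates of the change that differed in size within the same RNA. In the test of pairs of probes given below, 0 of 10 pairs passed in either tissue. In brain, probe 1 was at −0.67, −1.04, −0.77 and −0.44 in starved and at −0.74, −0.77, −0.55 and −0.55 in fed brains. The groups overlapped, and the change was −0.08 (SE 0.13, adjusted p = 0.673). Probe 2 was at −1.54, −1.42, −1.48 and −1.39 in starved brains, against −0.63, −0.86, −0.78 and −1.0 in fed brains, and its change was −0.64 (SE 0.093, adjusted p = 0.00251). Probe 4 was at −4.65, −4.39, −4.30 and −4.36 in starved brains, against −3.29, −3.30, −3.30 and −3.41 in fed brains. Here the groups lay far apart, by more than the range within either. Its change of −1.1 (SE 0.092, adjusted p = 0.000579) means 2.14 times the signal in fed brains.

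Probes 3 and 5 of InR lay between these. Probe 3 spanned −2.47 to −1.98 in starved brains and −2.14 to −1.70 in fed brains (−0.36, SE 0.15, adjusted p = 0.0953). Probe 5 was at −5.0, −4.61, −4.75 and −4.40 in starved brains, against −3.56, −4.05, −4.07 and −4.17 in fed brains (−0.73, SE 0.17, adjusted p = 0.0147), and with the slide as a block it no longer passed (adjusted p = 0.0575). Some genes of the marker lists also fell, among them nSyb, a synaptic vesicle gene of neurons (−0.58 in brain and −0.75 in antennae, adjusted p = 0.00363 and 0.00222), brp in antennae (−0.37, adjusted p = 0.0040) and the muscle gene up (−1.23 in brain and −1.87 in antennae, adjusted p = 0.00893 and 0.00952). The summed signal of the 7 genes of brain neurons was 10.2 to 12.3 in starved and 13.0 to 15.4 in fed antennae. In brain it was 47.2 to 53.0 in starved and 49.1 to 55.6 in fed flies. Of 7 genes of brain neurons, 1 was lower in brain and 6 did not pass. In antennae 3 of them were lower, 2 did not pass and 2 were not tested. Of 3 muscle genes, 1 was lower and 2 did not pass in each tissue. The part of neurons and muscle in the InR values was not tested. The brightest probe is thus the one with the smallest change, so that InR counts among the genes that did not pass when a gene is taken by its brightest probe.

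In antennae the changes of the InR probes fell in the same order of size as in brain. Probe 1 spanned −0.51 to −0.36 on starved and −0.56 to −0.27 on fed arrays (−0.01, SE 0.077, adjusted p = 0.942). Probe 2 was at −0.87, −0.90, −1.02 and −1.1 on starved arrays, against −0.46, −0.77, −0.69 and −0.59 on fed arrays (−0.35, SE 0.087, adjusted p = 0.0208). Probe 4 was at −4.24, −4.08, −4.61 and −4.58 on starved arrays, against −3.71, −3.30, −3.62 and −3.26 on fed arrays (−0.91, SE 0.15, adjusted p = 0.00493), with fed antennae at 1.87 times the signal. Probe 5 changed by −0.40 (SE 0.11, adjusted p = 0.0290) and probe 3 by −0.29 (SE 0.12, adjusted p = 0.108). For probe 3, whose groups overlapped, the starved array was the lower one on 4 of 4 slides. For probes 2, 4 and 5 this follows from groups that did not overlap.

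The antennal call of probe 4 held under every setting tried, though at −0.30 after normexp correction. That of probe 2 was lost without fed replicate 4 (adjusted p = 0.0509), with replicates 3 and 4 as the only fed arrays (adjusted p = 0.0595) and with arrays centred on their medians (−0.14, adjusted p = 0.283), and that of probe 5 was lost without starved replicate 1 or 2 or fed replicate 3 or 4 (−0.46 to −0.32 over the 8 fits without 1 array, adjusted p up to 0.0683) and was −0.05 (adjusted p = 0.783) after normexp correction and −0.09 (adjusted p = 0.648) after quantile normalization. In all, probe 5 lost its antennal call in 6 of 12 other settings.

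**Figure D5:**
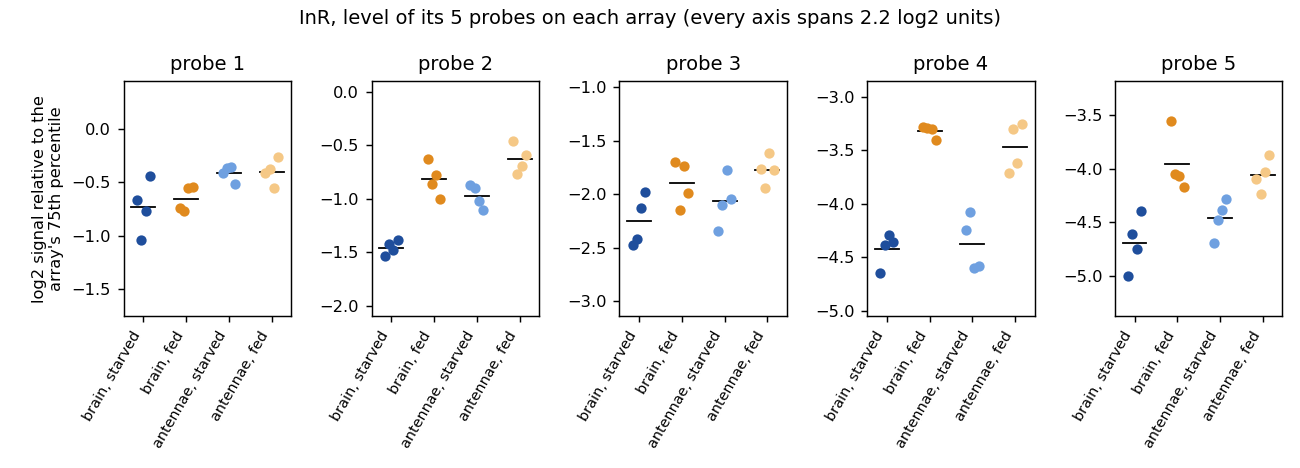
Level of the 5 InR probes on each of the 16 arrays, as log2 signal relative to the 75th percentile of the array, with a bar at the mean of each group of 4. Every panel spans 2.2 log2 units. For probe 1 the starved and fed points overlap in both tissues, and for probes 2, 4 and 5 they do not overlap in either.

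Whether the InR probes changed by different amounts was asked of the 10 pairs of probes in each tissue, by the difference of 2 probes on the same array, starved against fed (exact permutation test, two-sided, adjusted over the 10 pairs). In brain the groups did not overlap for 3 pairs, all with probe 4. By the estimates, probe 4 fell more than probe 1, with a difference of the changes of 1.02 (probe 1 minus probe 4). It also fell more than probe 3 (0.74, probe 3 minus probe 4) and probe 2 (0.46, probe 2 minus probe 4). Each pair had exact permutation p = 0.0286 and an adjusted p of 0.0952. Over 3 other settings these differences were as low as 0.55, 0.36 and 0.08, in the same order, and none passed. Of these settings, the exact test with the slide as a block allows no p below 0.125, so it could not pass. The change of probe 4 itself in brain lay between −1.21 and −0.63 in 11 other settings. In antennae the groups did not overlap for 2 pairs, with probe 1 above probe 4 by 0.90 and above probe 2 by 0.34 (exact permutation p = 0.0286 each, adjusted p = 0.143). Over the same 3 settings these antennal differences were as low as 0.30 and 0.29. In both tissues 0 pairs had an adjusted p under 0.05, and with an unadjusted floor of 0.0286 and 10 pairs that threshold can be passed only where 6 pairs or more reach the floor. This was the case in brain without starved replicate 2, where 6 pairs passed. The files give all 5 probes the same transcript name, CG18402-RA, and where on it each lies is not analysed here.

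For InR probe 1 the closest patterns over the 8 brain arrays were those of Mipp2 (r = 0.977), Ptp10D (r = 0.956), which encodes a receptor tyrosine phosphatase, and CG9098 (r = 0.950), with log2 changes of −0.05, 0.01 and −0.11 that did not pass the test.

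The adaptors had small changes. The product of chico is the insulin receptor substrate of the fly, and in starved brains its level was 0.80, 0.79, 0.88 and 1.13, against 1.23, 0.94, 1.20 and 1.35 in fed brains. The groups overlapped through starved replicate 4 and fed replicate 2. The change was −0.28 (SE 0.12, adjusted p = 0.0976), with the lower value on the starved array of 4 of 4 slides. Without starved replicate 4 the change was −0.36 and passed (adjusted p = 0.0483), and in brain it also passed in 3 of 11 other settings. In antennae chico was at 0.73, 0.73, 0.72 and 0.76 on starved arrays, against 0.84, 0.90, 0.81 and 0.99 on fed arrays. These groups did not overlap, and the change of −0.15 (SE 0.060, adjusted p = 0.0881) did not pass the test and turned to 0.05 when arrays were centred on their medians. In antennae it passed as a decrease in 2 of 12 other settings.

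Lnk encodes an adaptor with an SH2 domain of the SH2B family. It was at 1.15, 1.22, 1.25 and 1.13 on starved antennal arrays, against 0.94, 0.95, 0.84 and 0.93 on fed ones. Its groups did not overlap, and the log2 change of 0.27 (SE 0.059, adjusted p = 0.0124), or 1.21-fold, was the only increase among the member probes tested in antennae that passed. It held in all 8 fits without 1 array (0.25 to 0.29) and with replicates 3 and 4 as the only fed arrays (0.30, adjusted p = 0.0456), and missed in 1 fit over all 16 arrays (adjusted p = 0.0550). In brain Lnk was at 1.90, 1.62, 1.91 and 2.23 on starved arrays, against 1.53, 1.55, 1.54 and 1.70 on fed arrays, where starved replicate 2 fell below fed replicate 4. The change of 0.34 (SE 0.13, adjusted p = 0.0729) did not pass the test, and without starved replicate 2 it did (0.43, adjusted p = 0.0246).

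The difference of the starvation change between the tissues was tested as the antennal change minus the brain change, over all 16 arrays and 22784 probes. Among the 16 probes 2 were higher and 4 lower, against 1.31% and 1.65% (2.96% in either direction) of all probes. The 4 include Ilp3 and Ilp6 probe 3, which had been kept through their brain arrays. Both probes of ImpL2 were higher, by 1.1 (SE 0.24, adjusted p = 0.0222) and 1.35 (SE 0.21, adjusted p = 0.00399), and probes 1 and 2 of Ilp6 were lower, by −0.66 (SE 0.14, adjusted p = 0.0204, no longer passed with the slide as a block) and −0.76 (SE 0.15, adjusted p = 0.0124). Ilp6 probe 3 was at −0.74 (SE 0.17, adjusted p = 0.0292), but it was kept only through starved brain, where it is high, missed in 6 of 16 fits without 1 array and turned to 0.16 after normexp correction. For the 2 genes, the change in antennae was thus above that in brain for ImpL2 and below it for Ilp6. Ilp3 was lower by −2.83 (SE 0.71, adjusted p = 0.0476), which rests on antennal values near background and was lost in 15 of 16 fits without 1 array, and Ilp2 did not pass (−3.96, SE 1.06, adjusted p = 0.0611).

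None of the InR probes passed, with differences from 0.06 to 0.33 and adjusted p of 0.256 or more, nor did chico (0.13) or Lnk (−0.06). With replicates 3 and 4 as the only fed antennal arrays, ImpL2 probe 2 alone passed (1.46, adjusted p = 0.0133). ImpL2 probe 1 was then at 1.19 (adjusted p = 0.0702), and Ilp6 at −0.67, −0.71 and −0.59 (adjusted p = 0.0769, 0.0782 and 0.115).

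In level, brain was compared with antennae at the same feeding state. In starved flies 10 of the 16 probes were higher in brain and 2 were lower, against 40.9% and 34.7% (75.6% in either direction) of all probes. In fed flies 8 were higher and the other eight did not pass, against 42.4% higher and 33.9% lower (76.4% in either direction). Both counts of higher probes include Ilp2, Ilp3 and Ilp5, which entered the test only through their brain arrays, where they are high. The 10 also include Ilp6 probe 3, kept only through starved brain. Ilp2, Ilp3 and Ilp5 stood far above the rest in both states. Since none of them was well above background on a starved antennal array, their brain level in starved flies is given as a bound, and it was at least 1502-fold (Ilp2), 600.2-fold (Ilp3) and 66.1-fold (Ilp5) higher than in antennae. In fed flies the log2 differences were 6.92 (SE 0.75, Ilp2), 7.06 (SE 0.50, Ilp3) and 5.63 (SE 0.39, Ilp5), measured against antennal arrays of which 3, 2 and 1 of 4 were well above background. The order of levels was therefore brain above antennae for these genes, with starved brain above fed brain for Ilp2 and Ilp3, and the 2 brain groups of Ilp5 did not differ beyond their spread.

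ImpL2 was higher in brain than in antennae in both states, by 1.06 and 0.86 on its probes in starved flies (adjusted p = 4.31e-05 and 0.000102) and by 2.16 and 2.21 in fed flies (adjusted p = 1.86e-08 and 3.84e-09). The order was fed brain, starved brain, and then the antennal groups, whose difference did not pass the test. Ilp6 was higher in brain in starved flies, by 0.46, 0.55 and 0.77 (adjusted p = 0.000625, 0.000258 and 3.35e-05), and in fed flies the differences of −0.19, −0.22 and 0.03 did not pass (adjusted p = 0.0836, 0.0750 and 0.826). The dim probe 3 turned to −0.24 in starved flies after normexp correction. Its highest group was starved brain, and neither fed brain against fed antennae nor starved against fed antennae passed on probes 1 and 2.

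Ilp7 was higher in brain by 0.66 in starved and 1.30 in fed flies (adjusted p = 0.0123 and 7.03e-05), of which the first turned to −0.05 after normexp correction, and Lnk by 0.73 and 0.67 (adjusted p = 8.7e-06 and 2.21e-05). For chico brain was higher in fed flies (0.29, adjusted p = 0.00944), which did not hold with replicates 3 and 4 as the only fed antennal arrays (0.28, adjusted p = 0.0540), and in starved flies the difference was 0.17 (adjusted p = 0.111). InR was lower in brain on probes 1 and 2 in starved flies (−0.32 and −0.48, adjusted p = 0.0170 and 0.000180), and on its other probes, and on all 5 in fed flies, the differences between −0.25 and 0.15 did not pass.

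The rest of the pathway was followed in a list of 28 genes, each by its brightest tested probe. In brain 28 could be tested, of which 1 was higher, 6 were lower and 21 did not pass, with a median log2 change of −0.09 beside −0.07 over all genes. Over all genes 11.6% were higher and 21% lower there, so that the list, with 6 of 28 lower, stood near the background. In antennae 24 could be tested, of which 3 were higher, 6 lower and 15 not passed, with a median of −0.13 beside −0.02 over all genes, of which 11.1% were higher and 17.4% lower. With arrays centred on their medians the counts were 3 higher and 2 lower in brain and 8 higher and 2 lower in antennae, with the percentile over spots well above background 1 and 10 in brain and 0 and 8 in antennae, and after quantile normalization 3 and 9 in brain and 5 and 6 in antennae.

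Among the genes that act outside the cell, Sdr, whose product is a secreted decoy of the receptor that binds insulin-like peptides, was higher in both tissues. It averaged 0.56 ± 0.12 in starved and 0.11 ± 0.12 in fed brains (SD, n = 4 each), a log2 change of 0.46 (SE 0.094, adjusted p = 0.00932). In antennae Sdr averaged 0.51 ± 0.12 in starved and 0.25 ± 0.059 in fed flies (SD, n = 4 each), with a change of 0.27 (SE 0.076, adjusted p = 0.0315) that kept its call in 2 of 8 fits without 1 array, those without starved replicate 3 or fed replicate 1. Of the other peptides, Ilp1 and Ilp4 were not well above background on any antennal array, and in brain they changed by −0.37 (adjusted p = 0.282) and −1.74 (adjusted p = 0.0593). Ilp8 changed by 0.56 in brain (adjusted p = 0.0689) and by −0.07 in antennae (adjusted p = 0.339). In brain Ilp4 was well above background on 2 of 4 starved arrays and Ilp8 on 2 of 4 fed arrays. Each entered the brain test only through the group where it is high.

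Of the genes that act inside the cell, Thor, which encodes a repressor of translation and is a known target of Foxo, averaged 3.19 ± 0.12 in starved and 3.93 ± 0.43 in fed brains (SD, n = 4 each), a log2 change of −0.73 (SE 0.20, adjusted p = 0.0261), and 3.64 ± 0.28 in starved and 4.45 ± 0.21 in fed antennae (SD, n = 4 each), a change of −0.81 (SE 0.15, adjusted p = 0.00768). The gene foxo itself was lower by −0.52 in brain (SE 0.12, adjusted p = 0.0138) and by −0.34 in antennae (SE 0.085, adjusted p = 0.0199). The call of Thor in brain was lost in 4 of 8 fits without 1 array, those without replicate 1, 2 or 4 of the starved or replicate 1 of the fed brains, and with the slide as a block (adjusted p = 0.0507), and that of foxo in antennae without starved replicate 2. With arrays centred on their medians the calls of foxo in brain (−0.32, adjusted p = 0.106) and antennae (−0.14, adjusted p = 0.237) and of Thor in brain (−0.53, adjusted p = 0.101) were lost.

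In antennae the strongest decreases of the list were those of melt (−1.27, adjusted p = 0.00075), whose product binds to the membrane and to other proteins of the pathway, Thor and Akt (−0.40, adjusted p = 0.0060), the central kinase, whose call was lost with arrays centred on their medians (−0.19, adjusted p = 0.111). In brain they were bmm (−1.06, adjusted p = 0.00889), which encodes a lipase of fat stores, melt (−0.88, adjusted p = 0.0164) and Thor. Probes of 1 gene differed here. The brightest Akt probe in brain, not the one of antennae, changed by 0.18 (adjusted p = 0.236) while the other 2 were called lower, and the brightest bmm probe in antennae changed by 0.09 (adjusted p = 0.629) while 1 of the other 2 was called lower, so the 2 tissues cannot be set apart by these genes. Beside Sdr, gig was higher in antennae (0.19, adjusted p = 0.0414), which encodes Tsc2 and lost its call in all 8 fits without 1 array. With replicates 3 and 4 as the only fed antennal arrays both Sdr and gig missed the threshold (adjusted p = 0.106 and 0.128).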

How the data were processed

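The 16 arrays were read from the scanner files, whose spot intensities the authors deposited as background-subtracted processed signals of Agilent Feature Extraction 9.1 (submitters' notes). A series table that the authors deposited holds log2 values, and these equal the log2 processed signal minus the log2 75th percentile over all spots of the array to within 1.93e-08 and were used as an alternative. Here log2 processed signals were scaled to the 75th percentile over the 43603 spots other than controls (of 45020), outlier spots were left out, and spots of a probe were averaged. A probe was called well above background on an array where at least 0.5 of its spots were, and entered the test of a tissue if all 4 arrays of a group had it so. Starved was set against fed in each tissue with limma 3.58.1 (lmFit and eBayes, R 4.3.3), two-sided, with Benjamini-Hochberg adjustment over all probes tested at 0.05, where the authors' methods give a t-test with correction. The difference between the tissues, and brain against antennae, came from 1 limma fit over the 16 arrays. Every adjusted p in the text that is not named as exact comes from limma. Single values and pairs of InR probes were tested with exact permutation tests (R 4.3.3), and figures drawn with matplotlib 3.10.9 (Python 3.11.15, pandas 2.3.3). A gene was represented by its brightest tested probe. The number of arrays limits the precision. The steps were tested on simulated data.

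All 9 genes were named with every probe. Of the 28 other pathway genes, the 3 with the largest called change in each direction and tissue were named, and Ilp1, Ilp4, Ilp8, Sdr, foxo and Thor in any case; for Ilp2, Ilp6 and InR the 3 probes of other genes with the highest r in brain were named. In the pathway list 1 gene is counted but not reported here by name. The genes, the pathway list and the marker lists (brain neurons, insulin-producing cells, corpora cardiaca, antenna, glia, fat body, photoreceptor, muscle, gut) were chosen with earlier results of these data known. The photoreceptor sum was 41.6 to 75.5 in starved and 50.5 to 66.1 in fed antennae, and the muscle sum was 6.69 to 13.8 in starved and 11.4 to 17.5 in fed antennae. Names follow the array's design, of which 20390 of 32162 probes matched the RefSeq gene table of Release 6. Replicate numbers coincide with the 4 slides. Alternatives covered the replicate block, the test, the filter on dim probes, the background correction, the scaling, the deposited table, array weights, 1 fit over all arrays and leaving out each array. Fits with replicates 3 and 4 as the only fed antennal arrays were added after the data had been seen.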

Additional observations from a re-analysis of the deposited data

Results flagged for a closer look

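In 10 of 64 groups of 4 arrays (15.6%) 1 array stood apart from the other three by Dixon's ratio of its gap to the whole range of the group, above the critical value for 4 samples, which chance exceeds in about 1 in 20 groups. The cause was not tested. For Ilp6 these were starved brain replicate 2, high on probe 2 (0.837) and probe 3 (0.889), fed brain replicate 3, low on probe 1 (0.903), and starved antennal replicate 2, low on probe 3 (0.864). For Ilp5 they were starved brain replicate 4 (0.847) and fed brain replicate 2 (0.832), both low. Lnk was high on fed brain replicate 4 (0.893) and low on fed antennal replicate 3 (0.859), ImpL2 probe 1 was low on starved antennal replicate 3 (0.875), and InR probe 4 was low on fed brain replicate 4 (0.85).

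The starvation change differed between the tissues for 6 probes in the limma fit over all 16 arrays, given as the antennal change minus the brain change. These were Ilp3 (−2.83), Ilp6 probe 1 (−0.66), probe 2 (−0.76) and probe 3 (−0.74), and ImpL2 probe 1 (1.1) and probe 2 (1.35). Ilp3 was not well above background on any starved antennal array and missed in 15 of 16 fits without 1 array, and Ilp6 probe 3 was kept only through starved brain and missed in 6 of 16, so their sizes are uncertain.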

How the results depend on the processing

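Of 2185 single values under alternatives, 1979 kept their direction and their side of the threshold, 97 lost the threshold, 62 newly passed it and 47 changed sign, and the cause was not tested. Centring on medians moved the median change of all probes to 0.17 in antennae and 0.12 in brain, against −0.04 and −0.09. Dim probes and the antennal signals of Ilp2, Ilp3 and Ilp5 limit what the arrays can resolve.

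Counts moved as follows. In antennae, the member probes higher (1) were 2 under the replicate block, without a filter on dim probes, with array weights and with replicates 3 and 4 as the only fed arrays, 3 after quantile normalization, 5 with centring on medians, and 1 to 2 without 1 array. Those lower (3) were 5 with the percentile over spots well above background, 1 with centring on medians, and 1 to 4 without 1 array. Antennal genes higher (1) were 2 after quantile normalization, 3 with centring on medians and 0 in 1 fit over all 16 arrays (limma), and 1 gene was lower in the methods' t-test and with the percentile over spots well above background. Antennal pathway genes higher (3) were 1 under the block, without a filter and after normexp, 5 after quantile normalization, 0 with the percentile over spots well above background and with replicates 3 and 4 as the only fed arrays, 8 with centring on medians, and 0 to 4 without 1 array; those lower (6) were 2 with centring on medians. In brain, genes lower (1) were 2 with the percentile over spots well above background, with array weights and in 1 fit, and 1 to 2 without 1 array. Brain pathway genes higher (1) were 3 after quantile normalization, with centring on medians, with weights and in 1 fit, and 1 to 2 without 1 array, and those lower (6) were 10 with the percentile over spots well above background and with weights and 2 with centring on medians. Between tissues, probes with a lower change (4) were 2 under the block and with the percentile over spots well above background, 0 with replicates 3 and 4 as the only fed antennal arrays, where those higher (2) were 1, and 2 to 5 without 1 array. Probes lower in brain than in antennae were, in fed flies, 1 after normexp, with centring on medians and with weights, 3 after quantile normalization and 0 to 2 without 1 array, and in starved flies (2) 5 after normexp, 1 with centring on medians and 1 to 2 without 1 array. InR pairs that passed in brain were 0 to 6 without 1 array.

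Signs changed for the following values. In antennae they were Ilp6 probe 1 (0.00931 after normexp, 0.00841 after quantile normalization, 0.18 with centring on medians, −0.10 to 0.041 without 1 array), InR probe 1 (0.00471 after quantile normalization, 0.20 with centring on medians, 0.028 with weights, −0.060 to 0.037 without 1 array), chico (0.054 with centring on medians), Ilp8 (0.10 after quantile normalization, 0.13 with centring on medians) and bmm (−0.044 with replicates 3 and 4 as the only fed arrays, −0.00544 to 0.19 without 1 array). In brain they were Ilp5 (0.11 with centring on medians, −0.24 to 0.15 without 1 array), Ilp7 (0.20 after quantile normalization, 0.10 with centring on medians, −0.19 to 0.066 without 1 array), InR probe 1 (0.13 with centring on medians, −0.18 to 0.026 without 1 array), Ilp1 (0.00457 after quantile normalization), Ilp8 (−0.046 after normexp) and gig (−0.012 with the percentile over spots well above background). For the difference between tissues they were Ilp6 probe 3 (0.16) and Ilp5 (0.16) after normexp, InR probe 3 (−0.015 with replicates 3 and 4 as the only fed antennal arrays, −0.034 to 0.16 without 1 array), Lnk (−0.16 to 0.040 without 1 array) and InR probe 1 (−0.035 to 0.17 without 1 array). For brain minus antennae they were, in fed flies, Ilp6 probe 3 (−0.076 after normexp, −0.31 after quantile normalization, −0.00805 with centring on medians, −0.059 to 0.14 without 1 array) and InR probe 5 (−0.00753 with replicates 3 and 4 as the only fed antennal arrays, −0.033 to 0.17 without 1 array), and in starved flies Ilp6 probe 3 (−0.24) and Ilp7 (−0.054) after normexp and InR probe 4 (0.034 with the percentile over spots well above background, −0.12 to 0.055 without 1 array).

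The replicate number is the slide. Deviations of same-numbered arrays correlated with r of 0.107, −0.114, 0.058 and −0.082 in antennae and −0.308, −0.151, 0.318 and 0.027 in brain, and 1 array pair of 4 in each tissue correlated best with its own number, so the numbers were not taken to pair the arrays. With the number as a replicate block, ImpL2 probe 2 in antennae passed (0.33, adjusted p = 0.0248). Under the block Ilp2 (adjusted p = 0.0570), InR probe 5 (0.0575) and Thor (0.0507) in brain, Sdr (0.0539) and gig (0.0704) in antennae, and the difference between tissues of Ilp6 probe 1 (0.05) and Ilp3 (0.0557) no longer passed, and it changed no other call.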
